A study of Danio rerio with 6 samples.

Results

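The values of 7 genes of the developing zebrafish heart were followed in *fogsk8* mutant embryos: *myl7*, *cmlc1*, *myh7*, *tnnt2a*, *gja1b*, *nkx2.5* and *nkx2.7*. They were taken by name, as the probe sets whose single gene symbol on the array equals one of the 7 symbols. All 7 were found, each with 1 probe set, among 8793 genes and 15502 probe sets tested. The genes were picked with earlier results of the same comparison known, so their values, standard errors and counts are given as a description, and no p-value of theirs is printed.

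The *fogsk8* line carries a recessive allele of *supt5h*, which encodes the transcription elongation factor Spt5 (Foggy). It is predicted to leave no functional zygotic product, while part of the maternal Spt5 protein is still present at 24 hours post fertilization (hpf). Total RNA was taken from whole mutant embryos and from the same number of their WT siblings at 24 hpf, in 3 independent replicates per group, and each RNA was put on its own single-colour Affymetrix array. WT stock was of the AB strain, no agent was given, and mutants and siblings came from natural spawning. The *supt5h* probe set read 6.80 to 7.56 on the log2 scale in WT and 3.66 to 3.81 in *fogsk8* embryos, so the labels of all 6 arrays fit its level. The values are log2 GC-RMA values, which are corrected for background and normalized between arrays, and a difference of 1 is a 2-fold change. Array medians lay between 5.07 and 5.14 and 10th percentiles between 2.27 and 2.34. The number of arrays limits the precision.

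The heart muscle cell contracts through the sarcomere, in which myosin heavy chains with their essential and regulatory light chains pull on actin filaments, and troponin and tropomyosin make the pull depend on calcium. Gap junctions built of connexins pass current and small molecules between neighbouring cells. Before and during the assembly of the heart tube, homeobox factors of the NK family mark the cardiac progenitors and act upstream of the contractile genes, and in zebrafish *nkx2.5* and *nkx2.7* act together in this role. By the stage sampled here, the WT heart tube has formed and beats.

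The 4 contractile genes and the connexin gene *gja1b* read lower in *fogsk8* embryos on every array, from 4.0-fold for *tnnt2a* to 24.1-fold for *myl7*. Of the NK factor genes, *nkx2.7* read 2.01-fold higher on average and *nkx2.5* lay near the floor of the array in both groups. Past the call rule, an adjusted p under 0.05 by limma and a change of at least 2-fold, stood 5 of the 7 probe sets on the lower side and 1 on the higher side. Over all 15502 probe sets these shares were 2.87% and 0.748%, and over the 8793 genes, each read from 1 probe set, 3.2% and 0.898%. Since the genes were chosen on this comparison, nothing is read from their count. Whole embryos were used, so fewer heart cells and less RNA per heart cell cannot be told apart.

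**Figure D1:**
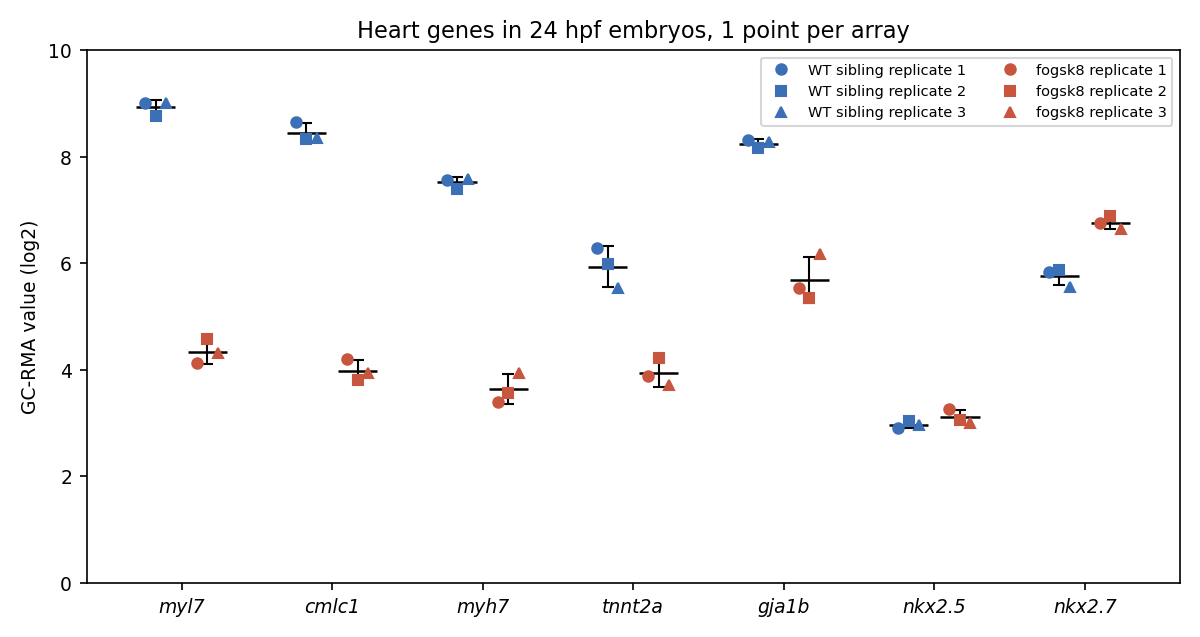
GC-RMA value (log2) of the 7 heart genes on each of the 6 arrays, with WT siblings in blue and *fogsk8* embryos in red, 1 symbol shape per replicate number, and bars at the mean ± SD (n = 3). The 2 groups lie apart for every gene but *nkx2.5*, and *nkx2.7* is the one gene whose *fogsk8* arrays all lie above its WT arrays. The share of all probe sets that lie apart was not counted, so nothing is read from this separation.

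The gene with the largest decrease among the 7 was *myl7*, the regulatory myosin light chain that is made throughout the zebrafish heart tube and is also known as *cmlc2*. Its probe set (Entrez gene 30592) read 9.0, 8.76 and 9.02 in WT replicates 1, 2 and 3, and 4.12, 4.57 and 4.30 in *fogsk8* replicates 1, 2 and 3. The lowest WT array thus lay 4.19 above the highest *fogsk8* array, many times the range within either group. The group means were 8.93 ± 0.14 and 4.33 ± 0.23 (SD, n = 3), a log2 fold change of −4.59 (SE 0.14), which leaves 4.14% of the WT level. It was the 12th largest decrease among all 15502 probe sets.

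The essential light chain of cardiac myosin is encoded by *cmlc1* (Entrez gene 64671). Its values were 8.66, 8.33 and 8.34 in WT and 3.82 to 4.20 in *fogsk8* embryos (4.20, 3.82 and 3.93 in replicates 1, 2 and 3). Replicate 1 was the highest array in both groups, and the groups were separated by 4.13. The means of 8.45 ± 0.18 and 3.98 ± 0.20 (SD, n = 3) gave a log2 fold change of −4.46 (SE 0.14), or 4.53% of WT. The decreases of the 2 light chains were not told apart in size, with a difference in log2 fold change of −0.13 (SE 0.26 from the 6 arrays).

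The heavy chain on which these light chains sit is represented by *myh7*, for which RefSeq gives the older names *vmhc*, the ventricular myosin heavy chain, and *smyhc3*. Its probe set (Entrez gene 30616) read 7.57, 7.39 and 7.59 in WT and 3.39, 3.57 and 3.94 in *fogsk8* embryos. The 3 WT arrays were close together, while *fogsk8* replicate 3 lay above the other mutant arrays and still 3.46 below the nearest WT array. The means were 7.52 ± 0.11 and 3.63 ± 0.28 (SD, n = 3), with a log2 fold change of −3.89 (SE 0.15), or 6.76% of WT. It was the 27th largest decrease among all probe sets. The *fogsk8* means of *cmlc1*, *myh7* and *tnnt2a* were all under 4, the limit taken here for dim probe sets, where GC-RMA values are compressed, so the size of their decrease is limited by the WT level and may be understated. Myosin heavy chain genes resemble each other in sequence, and a further probe set is listed for both *myh7l* and *myh7*, so that it could not be assigned to one of them. It read 3.48, 3.44 and 4.66 in WT and 3.04, 2.82 and 2.51 in *fogsk8* embryos, a difference of −1.07 (SE 0.36) that did not pass the test of limma (adjusted p = 0.104). Its direction was that of the *myh7* probe set, but its WT arrays were dim and spread wide.

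Cardiac troponin T, which ties the troponin complex to tropomyosin and without which the zebrafish heart does not beat, is encoded by *tnnt2a* (Entrez gene 58071). Its values were 6.29, 5.99 and 5.53 in WT and 3.88, 4.23 and 3.70 in *fogsk8* embryos. The groups did not overlap, with 1.3 between the nearest arrays, but the spread within WT was the largest of the 7 genes. The means of 5.94 ± 0.38 and 3.94 ± 0.27 (SD, n = 3) gave a log2 fold change of −2.0 (SE 0.23), and 25.0% of the WT level was left. It was the 124th largest decrease among all probe sets.

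The remaining gene with a decrease, *gja1b*, encodes connexin 43, a gap junction protein that is made in the heart and also in other tissues of the fish, among them the fin. Its probe set (Entrez gene 30236) read 8.31, 8.16 and 8.27 in WT, and 5.53, 5.34 and 6.18 in *fogsk8* embryos. WT arrays differed little, while *fogsk8* replicate 3 stood above the other mutant arrays by more than the whole WT range, and 1.98 below the lowest WT array. The means were 8.25 ± 0.079 and 5.68 ± 0.44 (SD, n = 3), and the log2 fold change was −2.56 (SE 0.22), or 16.9% of WT. It was the 75th largest decrease, and it was not told apart in size from that of *tnnt2a*, with a difference of −0.57 (SE 0.45).

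Of the transcription factor genes only *nkx2.7* could be read, and it was higher in *fogsk8* embryos. Its probe set (Entrez gene 30694) read 5.84, 5.87 and 5.56 in WT and 6.76, 6.89 and 6.64 in *fogsk8* embryos. All mutant arrays lay above all WT arrays, with a gap of 0.77 between the nearest. The means of 5.76 ± 0.17 and 6.76 ± 0.13 (SD, n = 3) gave a log2 fold change of 1.01 (SE 0.11), the 149th largest increase among all probe sets. The value lay just past the 2-fold limit. Without WT replicate 3 it was 0.91 and without *fogsk8* replicate 2 it was 0.94. Without replicate 3 of both groups it was 0.97, and each of these lay below that limit. The direction was the same under all 15 alternatives tried. Since the groups did not overlap, leaving out arrays could not have reversed it, and several alternatives change only the p-value. Whole embryos were used, so the tissue in which *nkx2.7* was higher cannot be read.

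The probe set of *nkx2.5* (Entrez gene 30696) read 2.91, 3.03 and 2.95 in WT and 3.26, 3.06 and 3.0 in *fogsk8* embryos. These values overlapped between the groups, with means of 2.96 ± 0.063 and 3.11 ± 0.13 (SD, n = 3), a log2 fold change of 0.14 (SE 0.085). They lay less than 1 above the 10th percentile of their arrays, so a decrease of this transcript could hardly be seen with this probe set, while no increase beyond the spread of the arrays was seen. Its level in the heart cannot be read from it in either group.

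**Figure D2:**
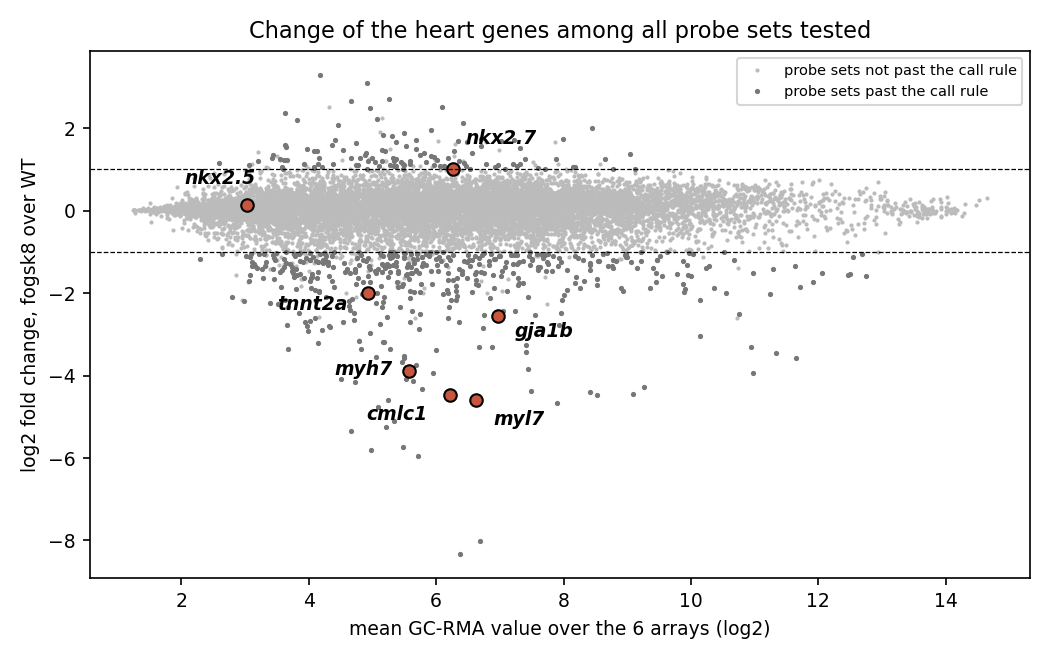
Log2 fold change of *fogsk8* over WT against the mean GC-RMA value over the 6 arrays (log2) for all 15502 probe sets, those past the call rule in dark grey, the 7 heart genes in red, and dashed lines at 2-fold. The 3 myosin genes lie far below the bulk of probe sets of their brightness, *nkx2.7* lies on the upper 2-fold line, and *nkx2.5* sits in the dim part where few probe sets change.

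Ordered by their log2 fold change the 7 genes ran from *myl7*, *cmlc1* and *myh7* through *gja1b* and *tnnt2a* to *nkx2.5* and *nkx2.7*. The step from *tnnt2a* to *nkx2.5* was 2.14 (SE 0.29), but nothing is read from it. A decrease of *nkx2.5* could hardly be seen so near the floor. The step from *myh7* to *gja1b* was 1.32 (SE 0.15), many times its error. In contrast, *myl7* and *cmlc1*, and *gja1b* and *tnnt2a*, were neighbours whose order did not exceed 2 standard errors, and *cmlc1* and *myh7* differed by 0.58 (SE 0.26). Because several mutant values lay near the floor, the size of each decrease is bounded by the WT level of its probe set. The median over the 7 genes was −2.56, beside 0.057 over all 8793 genes and 0.055 over all probe sets.

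Replicate 3 stood apart from replicates 1 and 2 in both groups, in skeletal muscle genes among others, and most of the 7 heart genes did not follow it. The list of skeletal muscle contractile genes used here also holds creatine kinase, calcium pump and parvalbumin genes. Of its 24 genes with a mean of 4 or more in a group, 20 were higher on replicate 3 in both groups. The median difference was 0.73 in WT and 0.60 in *fogsk8* embryos. Without that limit on the mean, 21 of the 28 skeletal muscle genes were higher on replicate 3 in both groups. So were 9 of the 14 other cardiac contractile genes described below. Of the 7 heart genes 2 were higher on it in both groups, or 28.6%, beside 24.1% of all genes, also without that limit. For *tnnt2a* replicate 3 was the lowest array of either group, by 0.61 and 0.35 relative to the mean of the other replicates. For *gja1b* it was 0.033 higher in WT and 0.74 higher in *fogsk8* embryos, and for *myh7* 0.10 and 0.46 higher. The differences between the replicates were smaller than the change between the groups in each of the 5 genes that read lower.

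**Figure D3:**
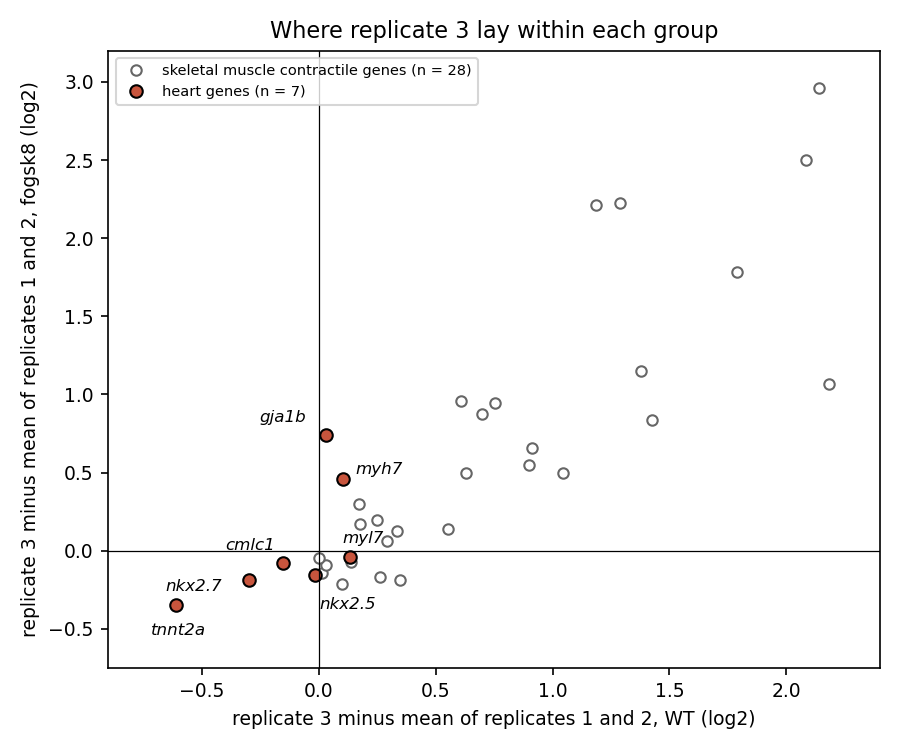
Value of replicate 3 minus the mean of replicates 1 and 2 (log2), in WT on the horizontal axis and in *fogsk8* embryos on the vertical axis, for the 7 heart genes (red) and 28 skeletal muscle contractile genes (open circles), 1 circle per gene. Many skeletal muscle genes lie far to the upper right, while the heart genes lie closer to 0, with *tnnt2a* the lowest on replicate 3 in both groups and *gja1b* and *myh7* raised mainly in *fogsk8* embryos (0.74 and 0.46).

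Genes whose values over the 6 arrays were most like those of a heart gene were found by Pearson's r among 6435 other genes with a mean of 4 or more in a group. Because all arrays belong to the 2 groups, r mostly follows the group difference and takes no account of its size. Between 214 genes for *tnnt2a* and 371 for *nkx2.7* had r over 0.95. The nearest to *myl7* were *olig3*, a helix-loop-helix factor of the hindbrain and spinal cord, *csf1b*, a ligand of the colony stimulating factor receptor, and *slc2a15b*, a transporter needed by certain pigment cells (r = 0.9991, 0.9988 and 0.9985). Their log2 fold changes were −1.21, −2.33 and −3.94, so a pattern of nearly the same shape came with decreases of different size.

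Nearest to *cmlc1* were *mcm5*, a subunit of the replicative helicase, *stag1b*, a cohesin subunit, and *mab21l2* (r = 0.9986, 0.9985 and 0.9982). Nearest to *myh7* were *rbfox1l*, a splicing regulator of muscle, *syt4*, a synaptotagmin, and *cpox*, an enzyme of heme synthesis (r = 0.9991, 0.9979 and 0.9973). For *tnnt2a* they were the DNA methyltransferase gene *dnmt1*, *znf609b* and *rimkla* (r = 0.9987, 0.9980 and 0.9970), and for *gja1b* they were *erbin*, the glutamate transporter gene *slc1a2b* and again *syt4* (r = 0.9985, 0.9978 and 0.9969). The values of *nkx2.7* were most like those of *naa20*, a subunit of an acetyltransferase for protein ends, *pmaip1*, a BH3-only protein that promotes cell death, and *adsl*, an enzyme of purine synthesis (r = 0.9994, 0.9974 and 0.9973). Between the members themselves, *myl7* correlated with *cmlc1* at 0.993 and with *myh7* at 0.996.

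Other genes of the cardiac sarcomere were compared with the 4 contractile genes. Of 46 symbols 14 were matched to a probe set by exact single symbol. Of these 3 fell and none rose past the call rule (6 and 2 at an unadjusted p under 0.05 by limma, at any fold). The share of all genes at an unadjusted p is not given here. Nothing is therefore read from these unadjusted counts, nor from those of the lists below. The median log2 fold change was −0.49 beside 0.057 over all genes. Those that fell were *ldb3b* and *ldb3a*, which encode LDB3 proteins of the Z-disc (log2 fold change −1.87, SE 0.47, adjusted p = 0.0497, and −1.61, SE 0.36, adjusted p = 0.0339 by limma), and the titin gene *ttn.2* (−1.06, SE 0.22, adjusted p = 0.0263). A second bright probe set of *ttn.2* was at −0.91 (SE 0.22, adjusted p = 0.0417), under 2-fold, and its other 2 probe sets were near the floor. Without WT replicate 2, or without any 1 of the *fogsk8* arrays, none of these 3 calls remained. With all arrays and the replicate number as a block, the adjusted p by limma was 0.00542, 0.0043 and 0.0164 for *ldb3b*, *ldb3a* and *ttn.2*. These genes are also used by skeletal muscle. Cardiac actin *actc1a* and desmin *desma* were lower by under 2-fold (−0.45, SE 0.081, adjusted p = 0.0196, and −0.95, SE 0.18, adjusted p = 0.0218), and *ilk*, an integrin-linked kinase, was at −0.02 (adjusted p = 0.837). Of the others, *mybpc3* was at −1.25 (SE 0.53) without passing the test (adjusted p = 0.173 by limma). The gene *xirp1* was higher by under 2-fold (0.64, SE 0.11, adjusted p = 0.0176). The whole of this list lay well above the −3.89 to −4.59 of the 3 myosin genes, which were picked with the comparison known. Its dimmer genes, such as *tnnc1a*, *ldb3a* and *mybpc3* (WT means 3.68, 4.57 and 4.58), read too near the floor in WT to show such a decrease. The brightest genes had room for it, but *ldb3b* and *ttn.2* among them are also used by skeletal muscle. Nothing is therefore read from this contrast with the myosin genes. The fourth contractile gene, *tnnt2a*, was at −2.0, near *ldb3b* and *ldb3a*.

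Of 43 genes of cardiac calcium handling, conduction and energy supply, 11 were measured, and by limma 2 fell and none rose (4 and 0 at an unadjusted p under 0.05, at any fold). These were *ckmb*, a muscle creatine kinase (−1.41, SE 0.23, adjusted p = 0.0151), and *mb*, myoglobin (−1.24, SE 0.22, adjusted p = 0.0177), and both calls were lost without *fogsk8* replicate 1. The call of *mb* was also lost without WT replicate 1 and without *fogsk8* replicate 2 or 3. The gene *ckmb* also stands in the list of skeletal muscle. The calcium pump gene *atp2a2b* and the calsequestrin gene *casq2* had values of −0.62 and −0.97 that did not pass the test without a block (adjusted p = 0.146 and 0.111 by limma). With the replicate number as a block, the adjusted p by limma was 0.0154 and 0.025, still under 2-fold. Of the 11 genes 4 had a mean of 4 or more in a group, so most of this list, the potassium channel gene *kcnh2a* among them, was read near the floor. The median log2 fold change was −0.07 over the 11 genes and −1.10 over the 4 brighter ones.

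**Figure D4:**
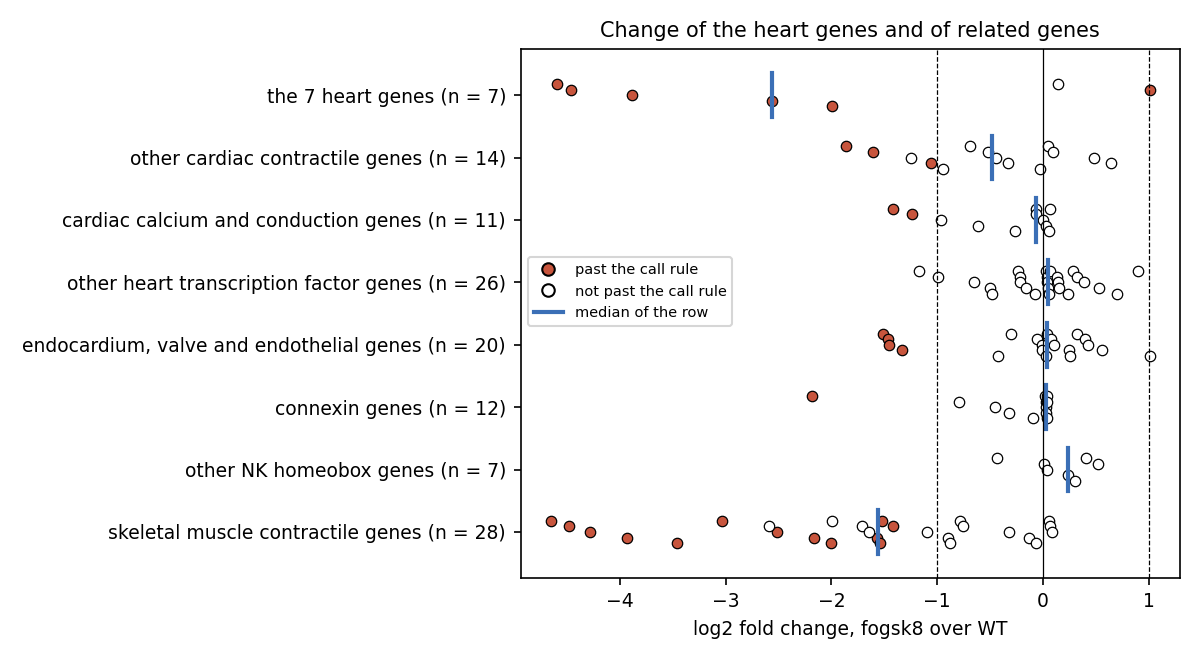
Log2 fold change of *fogsk8* over WT for the 7 heart genes and for 7 lists of related genes, 1 circle per gene, red past the call rule and open otherwise, with the median of each row in blue and dashed lines at 2-fold. The median is −2.56 for the heart genes, −1.56 for the skeletal muscle list and −0.49 for the other cardiac contractile genes, and between −0.07 and 0.23 for the remaining lists. Most calcium, conduction and connexin genes were near the floor. Over genes with a mean of 4 or more in a group, the medians were −1.10 for calcium and conduction and −0.46 for connexins. They were 0.035 for heart transcription factors, 0.25 for the endothelial list and 0.30 for the NK list.

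Around *nkx2.5* and *nkx2.7*, 26 of 41 other heart transcription factor genes were measured, and by limma none passed the call rule in either direction, with a median of 0.042. Of the 26 genes, 16 had a mean of 4 or more in a group. Others, such as *gata4*, *tbx5a* and *tbx20* (WT means 1.79, 2.26 and 2.24), read near the floor in both groups. A decrease of these could hardly be seen. With no minimum fold 3 of the 26 were higher and 2 lower at an adjusted p under 0.05 by limma. Over all 8793 genes these counts were 947 and 804, so nothing is read from them. At an unadjusted p under 0.05 by limma 4 of the 26 were higher and 6 lower, while the methods' t-test with 2-fold called none, adjusted or not. The increases of *foxc1b* (0.89, SE 0.16, adjusted p = 0.019 by limma) and *tbx3a* (0.70, SE 0.12, adjusted p = 0.0164) were under 2-fold. Of the other named ones *hopx*, a homeodomain-only protein, was at 0.53 (SE 0.098, adjusted p = 0.0211). The LIM homeobox factor gene *isl1a*, of cardiac progenitors and of neurons, was at −0.99 (SE 0.22, adjusted p = 0.0353), just short of 2-fold. Its second probe set was at −0.37, and the *isl1a* call passed without *fogsk8* replicate 3. The largest change of the list was that of *mef2ca*, at −1.17 (SE 0.43). Its groups overlapped, and it did not pass the test (adjusted p = 0.126 by limma). The values of *hand2* (0.32) and *gata5* (0.29), factors of the early heart field, did not pass the test (adjusted p = 0.137 and 0.332). Of 20 other NK homeobox genes 7 were measured and by limma none passed the call rule, with a median of 0.23. At an unadjusted p under 0.05 and any fold 1 was higher and 0 lower, and the methods' t-test with 2-fold called none. Among these *nkx2.2b* was higher by under 2-fold (0.41, SE 0.081, adjusted p = 0.0247), and *nkx2.3*, *nkx2.9*, *nkx2.2a* and *nkx2.1* lay between −0.43 and 0.51 without passing the test. One listed gene, *nkx3.2*, was missed because the array spells it *nkx3-2*, and it is given here after its values were seen. This homeobox factor of the jaw joint and axial skeleton read 2.37, 3.01 and 2.76 in WT and 4.80, 4.80 and 5.16 in *fogsk8* embryos. The difference of 2.21 (SE 0.19) passed the test of limma (adjusted p = 0.00274) and was a larger increase than that of *nkx2.7*.

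Among 12 of 64 connexin genes that were measured beside *gja1b*, 1 fell, *gja2* (−2.18, SE 0.30, adjusted p = 0.0091). It read 3.70, 3.82 and 4.72 in WT and 1.70, 1.81 and 2.18 in *fogsk8* embryos. The mutant values were thus at the floor and the decrease may be understated. The connexin gene *gjc4b* was lower by under 2-fold (−0.46, SE 0.085, adjusted p = 0.0214) and *gjb8* was at −0.10 (adjusted p = 0.614). Only 3 of the 12 had a mean of 4 or more in a group. The median was 0.023 over the 12 genes and −0.46 over these 3.

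The inner lining and vessels were read from 20 of 34 genes of endocardium, valve and endothelium, of which 4 fell and none rose by limma (4 lower and 4 higher at an unadjusted p under 0.05, at any fold), with a median of 0.035. These were *fli1*, an ETS factor (−1.47, SE 0.093, adjusted p = 0.00136), *kdrl*, a VEGF receptor (−1.45, SE 0.11, adjusted p = 0.00207), *tie1*, a receptor kinase of endothelial cells (−1.33, SE 0.10, adjusted p = 0.00216), and *aqp8a.1*, an aquaporin (−1.51, SE 0.26, adjusted p = 0.0164). The call of *aqp8a.1* was lost without WT replicate 2 and without *fogsk8* replicate 2. The second probe set of *fli1* was at −0.60. Fibronectin *fn1a*, in whose matrix the heart precursors migrate, was higher by under 2-fold (0.56, SE 0.10, adjusted p = 0.0195). The other fibronectin gene, *fn1b*, was at 1.01 (SE 0.30) without passing the test (adjusted p = 0.0763 by limma). The bright genes *erbb2*, *alcama* and *klf2b* were at 0.25, −0.06 and 0.32, and none passed the test (adjusted p = 0.138, 0.845 and 0.391). The decreases of *fli1*, *kdrl*, *tie1* and *aqp8a.1* were smaller than those of the myosin genes and of *gja1b*, which were picked with the comparison known. The *fogsk8* mean of *tie1* was 2.49, near the floor, beside a WT mean of 3.82, so its decrease may be understated. The *fogsk8* means of *fli1*, *kdrl* and *aqp8a.1* were higher, at 4.95, 5.19 and 4.30.

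Markers of other tissues moved in the same comparison, and their part in the values of the heart genes was not tested. The skeletal muscle contractile list also holds creatine kinase, calcium pump and parvalbumin genes, some of which were among those that fell. Of its 28 genes measured, 13 fell and none rose by limma (22 and 0 at an unadjusted p under 0.05, at any fold), with a median of −1.56. Their summed level, on the linear scale, was 60933 to 101431 in WT and 17575 to 24450 in *fogsk8* embryos. The fast troponin T gene *tnnt3b* was at −4.65 (SE 1.0, adjusted p = 0.0332) and the fast myosin genes *myhz1.3* and *mylpfa* were at −3.93 (SE 0.32, adjusted p = 0.00236) and −3.46 (SE 0.32, adjusted p = 0.00325). The call of *tnnt3b* was lost without any 1 array other than *fogsk8* replicate 3. The slow myosin gene *smyhc1* was lower by under 2-fold (−0.90, SE 0.13, adjusted p = 0.0115). All 4 red blood cell markers fell, and their sum was 12053 to 19208 in WT and 3684 to 6665 in *fogsk8* embryos. Of the 4 neural markers none passed the call rule, *elavl3* and *sox19a* were lower by under 2-fold, and the sum was 3352 to 3540 in WT and 2153 to 2651 in *fogsk8* embryos. Of 6 endothelial markers 3 were matched by symbol and 2 fell, with sums of 115 to 130 and 45.0 to 54.2. The listed *fli1a* was not matched, and the probe set with the symbol *fli1*, which fell (−1.47), is not in these sums. The 4 matched heart muscle markers of the 7 listed, all members here, summed to 988 to 1185 in WT and 61.0 to 68.5 in *fogsk8* embryos, and *vmhc* (listed as *myh7*), *myh6* and *nppa* were not matched by symbol. The lowest value on any array was 1.12, so no marker could read 0. Some matched markers, such as *tek* (mean 2.66 in both groups), lay near the floor.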

How the data were processed

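The deposited log2 values come from GC-RMA, run by the authors on the scanner files: probes are corrected for background by their GC content, arrays are normalized to each other, and a probe set becomes 1 value. No source used here gives its version, and the scanner files themselves were not analysed here. Groups and replicate numbers follow the genotype and number in the labels.

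After removal of 115 controls from 15617 probe sets, limma 3.58.1 (R 4.3.3; lmFit, eBayes, 2 groups without covariates) was fitted to the other 15502, and p-values were adjusted over all of these by Benjamini-Hochberg. To pass, a probe set needed at least 2-fold and an adjusted p under 0.05. The fit was tested on simulated data. By the platform's annotation 10795 probe sets have 1 symbol, 135 several and 4572 none. For each of the 8793 genes the brightest probe set was used (highest mean). Listed genes count as measured only where a probe set carries exactly that single symbol, so others may be on the array under another name. RefSeq names came from the assembly GRCz12tu. Sequences and coordinates were not used here. Differences between neighbouring members carry an SE from the per-array differences of their probe sets, and summed levels are sums of 2 to the power of the log2 values. Tables and plots used Python 3.11.15, pandas 2.3.3, numpy 2.4.6 and matplotlib 3.10.9.

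The members and lists were chosen with earlier results of these data known. The naming rule took all members and, in each list, the genes past the call rule (at most 8, by size of change). It also took the brightest of the others (up to 4, or 5 in lists with fewer than 3 past the rule). The 3 genes most like each member with a mean of 4 or more were added. Not all listed genes picked in this way are given in the text. Outside the rule, *mef2ca*, *mybpc3*, *xirp1*, *fn1b*, *foxc1b* and *tbx3a* were named after their values were seen. So were *gata4*, *tbx5a*, *tbx20* and *tnnc1a*, for their low level. *supt5h*, *elavl3*, *sox19a* and *tek* come from the target and the marker lists.

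The alternatives were Student's t-test of the methods (raw and adjusted p), adjusted p alone, a trended variance prior, median centring, a further quantile normalization, dropping probe sets with a mean under 4 in both groups, any probe set of a gene in place of the brightest, the replicate block, and each array left out. A fit without replicate 3 of both groups was chosen after seeing the data. As a check of pairing, the deviations of arrays with the same number from their group means had correlations of 0.12, 0.29 and 0.39. All exceed the bound of 0.1, but WT replicate 1 was closer to *fogsk8* replicate 2 (0.18), and replicate 3 stood apart in both groups.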

Additional observations from a re-analysis of the deposited data

How the results depend on the processing

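The log2 fold changes of the 7 heart genes kept their direction and moved by less than the SD of the replicates pooled over both groups (0.11 to 0.33) under every alternative that gave a value, from −4.71 to −4.49 for *myl7*, −4.57 to −4.36 for *cmlc1*, −4.04 to −3.76 for *myh7*, −2.20 to −1.82 for *tnnt2a*, −2.81 to −2.39 for *gja1b*, 0.069 to 0.20 for *nkx2.5* and 0.91 to 1.07 for *nkx2.7*. Alternatives that change only the p-value or the filter leave the log2 fold change as it is. Leaving out 1 of 3 arrays cannot move it by the pooled SD. Most of this stability was therefore set by how the alternatives are built. The 5 lower genes stayed past the call rule under all alternatives. In contrast, *nkx2.7* fell short of it without WT replicate 3, without *fogsk8* replicate 2 and without replicate 3 of both groups (0 higher in each), because its change fell below 2-fold. With the dim probe sets left out, *nkx2.5* was not among those tested. Of all probe sets, 116 were higher and 445 lower. These became 1376 and 1239 with no minimum fold, 64 and 254 with the adjusted t-test, and 102 to 119 and 338 to 456 with single arrays left out. With no minimum fold, the other cardiac contractile genes had 6 lower and 1 higher, the other heart transcription factor genes 2 lower and 3 higher, the endocardium, valve and endothelial genes 1 higher, the connexin genes 2 lower and the NK homeobox genes 1 higher. With the adjusted t-test, 0 of the cardiac contractile, 0 of the calcium and conduction, 0 of the connexin and 5 of the skeletal muscle genes were lower. In the heart transcription factor list, 1 gene was lower with a further quantile normalization, with the replicate block and without replicate 3 of both groups, and in the endothelial list 1 was higher with the unadjusted t-test, with dim probe sets left out and without replicate 3 of both groups. The replicate block changed no other list count by over 1.5 times and moved none of the 7 genes across the call rule. Of the genes picked by the naming rule it brought *casq2*, *atp2a2b* and *gjc4a.1* to an adjusted p under 0.05 by limma (0.025, 0.0154 and 0.0073), all under 2-fold. With single arrays left out, lower calls ranged from 0 to 2 in the cardiac contractile list, 0 to 2 in the calcium and conduction list, 0 to 1 in the heart transcription factor list and 7 to 14 in the skeletal muscle list (7 without *fogsk8* replicate 1 and 8 without *fogsk8* replicate 2). Higher calls ranged from 0 to 1 in the heart transcription factor list (1 without WT replicate 2), 0 to 1 in the endothelial list (1 without WT or *fogsk8* replicate 3) and 0 to 1 among the 7 genes. The cause of these shifts was not tested. Values near the floor limit what *nkx2.5* and the dim connexin, channel and heart transcription factor genes can show.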
